A study of Mus musculus with 2 samples.

Results

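Of 19559 listed genes, 10 gave many reads in a library of whole mouse blastocysts and no read in a library of isolated inner cell masses (ICMs). They are Gpnmb, Kank1, Fxyd6, Entpd1, Sema3b, Plat, Chrna1, Atp12a, Mdfic and Lactb. They were chosen because each had over 600 whole-blastocyst reads and 0 ICM reads, so the difference between the libraries in these genes is what selected them and is given as a description, with no test. Of the 12 listed genes that met both conditions, 10 are described here. The other two were Ppp1r9a, an actin-binding scaffold gene with 0 ICM reads and 718 whole-blastocyst reads, and the unnamed gene model C130074G19Rik with 0 and 619.

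The ICM was taken from E3.75 embryos by immunosurgery, which strips the outer cell layer, and was set against intact E3.75 blastocysts. All embryos came from B6CBAF1 females mated with CD-1 males, per the labels. Apart from immunosurgery, no genotype or treatment separated the groups. An effect of that procedure on the ICM cannot be told apart from the loss of the outer layer. Each group is 1 library, so no spread between samples is known. The number of embryos pooled is not stated in the labels. Listed genes took 4125479 reads in the ICM library and 9271198 in the whole-blastocyst library.

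The blastocyst has an outer epithelium, the trophectoderm, which attaches to the uterus and founds the placenta, and an ICM, which founds the fetus and the yolk sac. Immunosurgery uses complement-fixing antibodies to kill the outer cells. The trophectoderm seals its cell contacts, pumps ions and water into the cavity, and faces the uterine fluid with its apical membrane. Several of the 10 genes encode proteins found at cell surfaces or secreted, including a proton pump, a regulator of the sodium pump, an enzyme that destroys extracellular ATP and a secreted protease. Others do not, such as Lactb, which encodes a mitochondrial protein. The share of surface and secreted proteins over all genes was not computed. Intact blastocysts contain their ICM, and in a bulk library fewer cells of a type and less RNA per cell cannot be told apart.

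The markers of the lineages went with the labels of the libraries, but the lists were chosen with earlier results of these data known. Of 20 trophectoderm markers that passed a filter of RPKM 1 (reads per kilobase of gene, scaled to a library total) in either library, 19 were at least 2-fold lower in the ICM, against a background of 44.0% of the 8981 genes that passed. Of 10 epiblast markers 9, and of 8 primitive endoderm markers 7, were at least 2-fold higher, against 8.96% of all genes. The ICM library had lower RPKM values in general, with a median log2 difference of -0.84 over all genes that passed the filter. In the 3013 genes that reached RPKM 5 in each library the median was -0.66, and differences relative to this shift are called centred. Markers of other cells were read to differing extents. Among 9 blood and immune markers no gene had over 2 ICM reads or over 31 whole-blastocyst reads, with summed levels of 0.410 RPKM in the ICM and 6.56 in the whole blastocyst. Hbb-b1 and Lyz2 were at 0 in both. Among 10 cumulus and uterine markers the sums were 3.83 RPKM in the ICM and 44.2 in the whole blastocyst. Most of the whole-blastocyst sum came from Cyp11a1, a steroidogenic enzyme gene (0 ICM and 324 whole-blastocyst reads), and Wfdc2, a gene of secretory epithelia (7 and 158). Cyp11a1 stood at 21.9 RPKM and Wfdc2 at 20.5 RPKM in the whole blastocyst, within the range of the 10 genes. Star, which moves cholesterol into mitochondria for steroid synthesis, had 61 ICM and 239 whole-blastocyst reads. Cyp19a1 went the other way, with 91 ICM reads and 0 whole-blastocyst reads, or 2.25 RPKM in the ICM. Fshr, Amh, Inha and Ltf had no read in either library. Has2 had 0 ICM reads and 1 whole-blastocyst read, and Muc1 0 and 2. The part of such cells in the results below was not tested.

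The 10 genes summed to 0 of 4125479 ICM reads and to 8971 of 9271198 whole-blastocyst reads, or 0.0968% of that library. A count of 0 allows a share of up to 7.27e-05% of ICM reads for each gene, taking 3 reads as the floor. Intervals and floors cover counting error only, since reads of amplified cDNA with no molecular identifiers are not independent molecules. Gpnmb had the most reads, with 0 in the ICM and 1331 in the whole blastocyst, and was at least 374-fold lower in the ICM by RPKM at a floor of 3 reads. Kank1 had 0 ICM and 1275 whole-blastocyst reads (at least 358-fold lower), and Fxyd6 had 0 and 1184 (at least 332-fold). These top values stood apart from those of the other genes. Entpd1 followed with 0 ICM and 936 whole-blastocyst reads (at least 263-fold lower), then Sema3b with 0 and 879 (at least 247-fold) and Plat with 0 and 760 (at least 213-fold). The lowest were close together. Chrna1 had 0 ICM and 676 whole-blastocyst reads (at least 190-fold lower), Atp12a 0 and 665 (at least 187-fold), Mdfic 0 and 649 (at least 182-fold) and Lactb 0 and 616 (at least 173-fold). The median bound was 230-fold at the floor and 187-fold by the exact 95% conditional limit. It was 122-fold with the libraries scaled to their listed reads and 118-fold by TPM, and the bounds of the single genes shrink by the same factors.

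**Figure D1:**
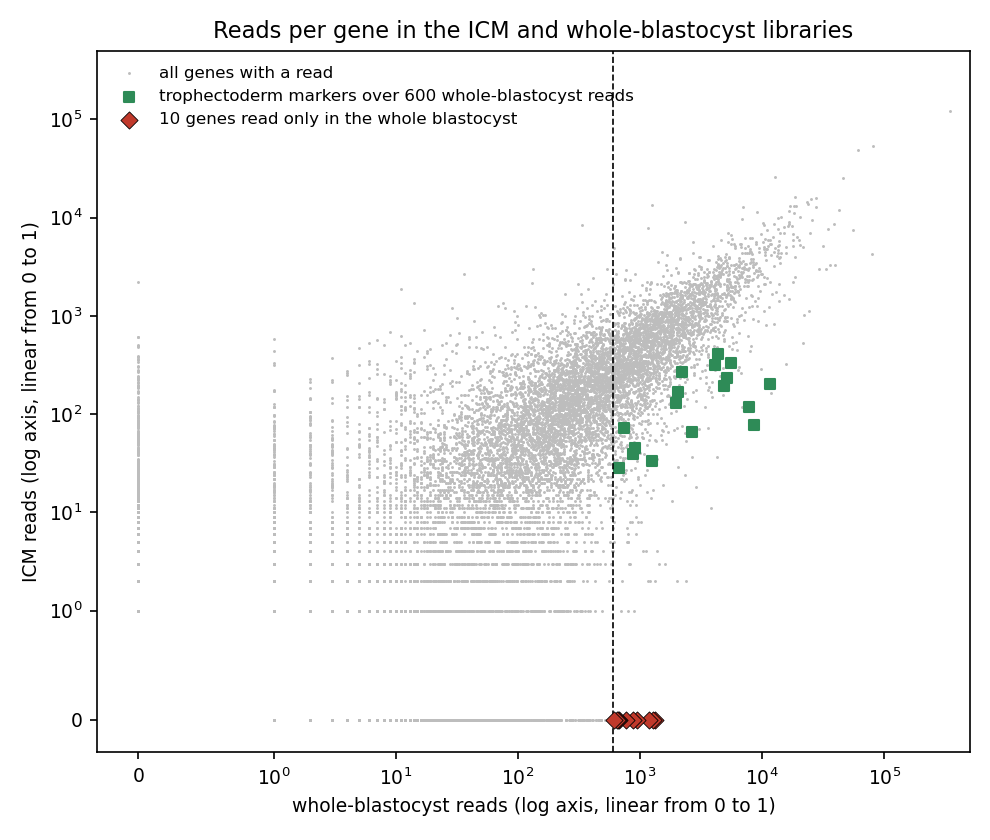
Reads per gene in the whole-blastocyst library (x axis) and the ICM library (y axis), both on log axes that are linear from 0 to 1; grey points are all genes with a read, green squares the 17 trophectoderm markers with over 600 whole-blastocyst reads, red diamonds the 10 genes, and the dashed line is at 600 reads. The red diamonds lie at 0 on the y axis between 616 and 1331 whole-blastocyst reads, whereas the green squares lie between 28 and 408 ICM reads.

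A count of 0 was rare at this depth. Of 2952 genes with over 600 whole-blastocyst reads, 12 had no ICM read (0.407%), and these 12 include the 10 genes by choice. In the opposite direction, 3 of 1615 genes with over 600 ICM reads had no whole-blastocyst read (0.186%). The share of genes without an ICM read was 55.7% (1491 of 2677) among genes with 1 to 10 whole-blastocyst reads. It was 12.7% among genes with 51 to 100 reads, 1.89% (16 of 845) with 401 to 600 and 0.781% (12 of 1536) with 601 to 1500. None of the 1416 genes with over 1500 whole-blastocyst reads lacked an ICM read.

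**Figure D2:**
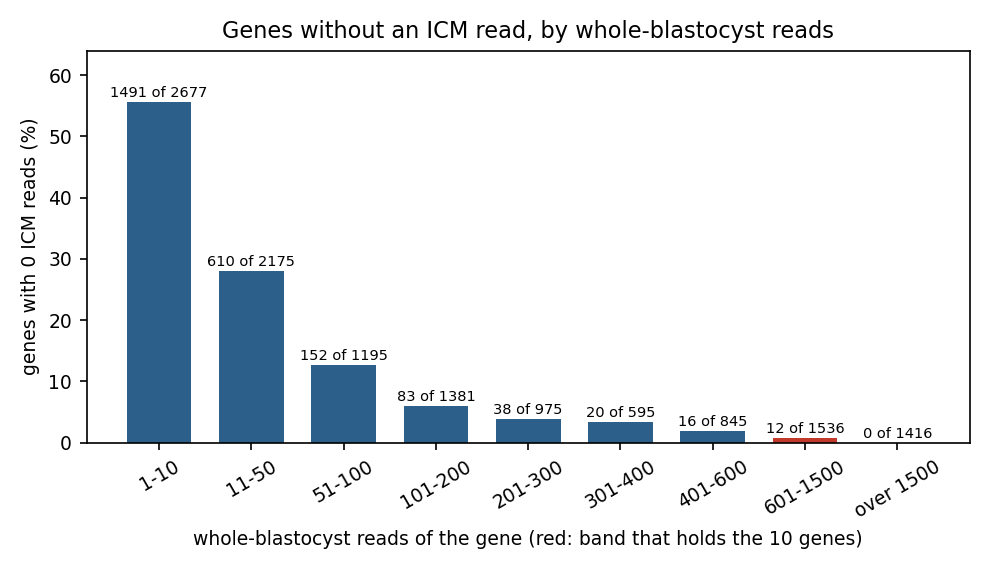
Percentage of genes with 0 ICM reads (y axis) in bands of whole-blastocyst reads (x axis), with the counts above the bars; the red bar is the band that holds the 10 genes. The share falls along the bands to 0.781% in the red bar and to 0 of 1416 genes in the last band.

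Between 616 and 1331 whole-blastocyst reads, the range of the 10 genes, the table lists 1330 genes. Their median ICM count was 38.2% of the whole-blastocyst count, with quartiles of 20.7% and 63.0%. At that median share, whole-blastocyst counts like those of the 10 genes come to 235 (Lactb) to 509 (Gpnmb) ICM reads. Trophectoderm markers give a closer scale. Of the 20 markers, 17 had over 600 whole-blastocyst reads, and each of these had ICM reads, from 28 for the claudin gene Cldn7 to 408 for the transcription factor gene Gata3. Their ICM counts ranged from 0.905% of the whole-blastocyst count for the endocytic receptor gene Lrp2 to 12.1% for Tfap2c, which encodes AP-2 gamma, with a median of 4.49%. At the median share, counts like those of the 10 genes come to 27.7 to 59.8 ICM reads, and at the share of Lrp2 to 5.58 to 12.1. These values only give a scale for the depth. The 10 genes were chosen at 0 ICM reads and the markers were not, so nothing is read from the gap. The trophectoderm markers without an ICM read were less abundant, Krt7 with 0 ICM and 150 whole-blastocyst reads and Elf5 with 0 and 77.

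**Figure D3:**
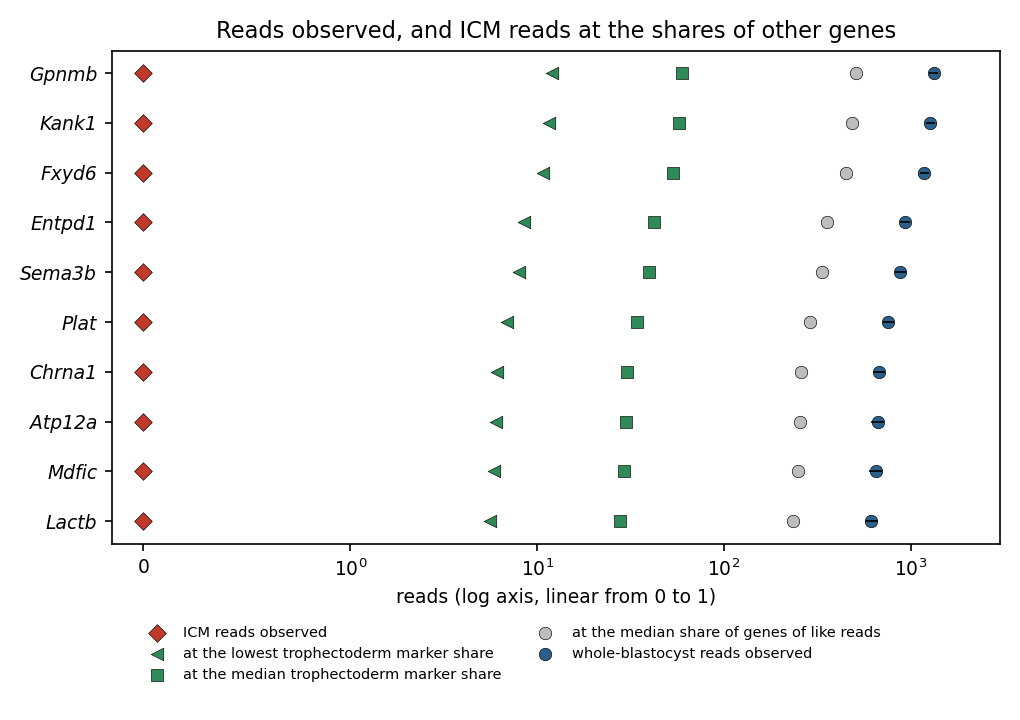
Reads (x axis, log scale that is linear from 0 to 1) for each of the 10 genes; red diamonds are ICM reads observed, blue circles whole-blastocyst reads with exact 95% Poisson intervals, and the other symbols are the ICM reads at the lowest and median share of trophectoderm markers (green) and at the median share of genes of like reads (grey). The red diamonds are at 0 because the genes were chosen so, and the green triangles, between 5.58 and 12.1 reads, and the other scaled values only show the scale of the ICM library.

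The limit of 600 reads lay within a continuous range. Just under it, with 0 ICM reads each, came Tnfrsf11a, which encodes the receptor RANK (575 whole-blastocyst reads), Ets2, a transcription factor gene known for its role in trophoblast (571), and Cdcp1, a transmembrane adhesion-linked protein (547). Lrp4, a receptor of the LDL receptor family (531), and Stc2, a secreted glycoprotein of the stanniocalcin family (529), followed. On the other side, 13 genes over 600 whole-blastocyst reads had 1 to 3 ICM reads. The named ones with 1 ICM read were Dnase1l3, a secreted nuclease gene (1 ICM and 789 whole-blastocyst reads), and Vldlr, a lipoprotein receptor gene (1 and 698). Others had more whole-blastocyst reads, such as Utrn (2 ICM and 1987 whole-blastocyst reads), Heca (2 and 1322) and Lmo7 (2 and 1171). Lactb, the last gene inside the choice, had 616 reads. In pattern, the genes most like the 10 by read count were those just under the limit and those over it with few ICM reads.

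By the deposited RPKM, which divides by gene length, the whole-blastocyst levels of the 10 genes spanned 5.85-fold. Kank1 was highest at 29.1 RPKM (95% counting interval 27.5 to 30.7), above Atp12a at 22.5 (20.8 to 24.2) and Fxyd6 at 22.4 (21.1 to 23.7), whose intervals overlapped each other. Plat (18.8 RPKM), Sema3b (18.4) and Lactb (17.0) came next, and the interval of Sema3b overlapped those of Plat and Lactb. Gpnmb stood at 14.6 RPKM (13.9 to 15.4) and Entpd1 at 7.48 (7.01 to 7.98), each apart from its neighbours. Mdfic at 5.65 (5.23 to 6.10) and Chrna1 at 4.96 (4.596 to 5.35) were lowest and overlapped. Each of the 10 genes was at 0 RPKM in the ICM, where 3 reads would have been worth between 0.0261 RPKM for Chrna1 and 0.120 for Atp12a. Among all listed genes, their whole-blastocyst ranks ran from 1306 (Kank1) to 4917 (Chrna1) by RPKM and from 1573 (Gpnmb) to 2901 (Lactb) by reads.

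This order depended on the gene length behind RPKM, which neither the labels nor the table state. Over 5870 genes with 100 or more whole-blastocyst reads, the number of reads per unit of RPKM and kilobase of the longest GENCODE coding transcript varied from 4.56 to 40.1 between the 5th and 95th percentiles. Its value was 7.498 for Atp12a and 7.79 for Kank1 but 31.6 for Mdfic and 31.1 for Chrna1. With reads divided by that transcript length instead, Fxyd6 led with 662 reads per kilobase in the whole blastocyst, followed by Gpnmb (360) and Lactb (303). Kank1 (226) then came sixth, Atp12a (168) ninth and Chrna1 (154) last. Chrna1 thus had the lowest value on either length, whereas the top places changed. Its counting interval overlapped that of Mdfic by RPKM and that of Atp12a by transcript length.

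**Figure D4:**
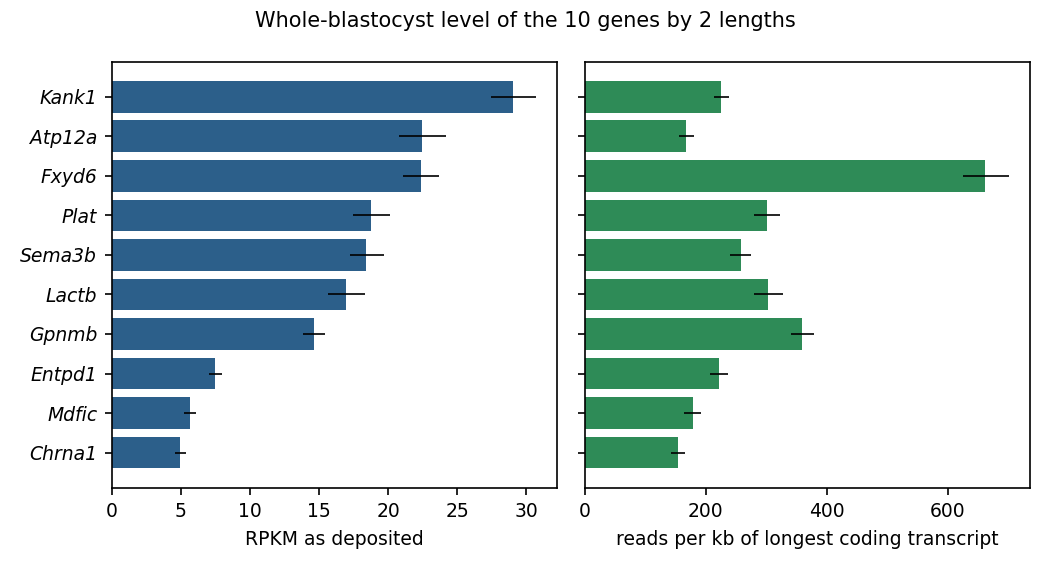
Whole-blastocyst level of each of the 10 genes as deposited RPKM (left) and as reads per kilobase of the longest GENCODE coding transcript (right); bars are 1 library and whiskers exact 95% Poisson counting intervals. Kank1 leads on the left at 29.1 RPKM and Fxyd6 on the right at 662 reads per kilobase. Chrna1 is last in both, with whiskers that overlap those of the next gene.

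RefSeq promoter windows were matched for 7 of the 10 genes (8 windows, since Entpd1 has a pair of starts). Sema3b, Plat and Atp12a had none there. The 250 bases before each start were searched on both strands for 10 short motifs. Of these, 3 are shown because they are the motifs of transcription factor families that are active in the trophectoderm: GGAATG for TEAD, GCCNNNGGC for AP-2 and AGATAA for GATA. Capitals mark these motifs in the windows below, which run 5′ to 3′ up to the base before the annotated start in GRCm38.p6. Lactb (chr9:66975485-66975734, minus strand) and Kank1 (chr19:25236725-25236974, plus strand) held a match, and Gpnmb (chr6:49036268-49036517, plus strand), the gene with the most reads, held none.
Lactb: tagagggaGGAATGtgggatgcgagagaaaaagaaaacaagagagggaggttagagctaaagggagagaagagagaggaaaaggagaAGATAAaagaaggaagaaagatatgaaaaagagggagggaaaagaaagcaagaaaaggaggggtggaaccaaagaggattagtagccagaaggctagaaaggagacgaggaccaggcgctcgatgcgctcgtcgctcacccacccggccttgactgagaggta
Kank1: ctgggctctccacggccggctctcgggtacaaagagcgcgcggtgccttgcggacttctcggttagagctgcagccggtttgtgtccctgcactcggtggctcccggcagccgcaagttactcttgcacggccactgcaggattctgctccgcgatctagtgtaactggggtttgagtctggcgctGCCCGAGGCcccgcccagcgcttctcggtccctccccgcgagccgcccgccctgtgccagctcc
Gpnmb: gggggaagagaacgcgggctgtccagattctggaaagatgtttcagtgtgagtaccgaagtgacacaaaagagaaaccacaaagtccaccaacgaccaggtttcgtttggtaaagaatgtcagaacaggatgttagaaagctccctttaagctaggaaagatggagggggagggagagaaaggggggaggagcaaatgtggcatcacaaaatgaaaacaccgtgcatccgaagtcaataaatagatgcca

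The TEAD and GATA motifs were each found in 1 of the 8 windows, both in Lactb, and the AP-2 motif in 1, in Kank1. Of all 32851 RefSeq windows of this length, 12.6% held the TEAD motif, 13.7% the AP-2 motif and 9.99% the GATA motif, so 1 match in 8 is near these shares. Among the other motifs, TGAGTCA (AP-1) was found in Chrna1 (4.46% of all windows), CCAAT in Fxyd6 and in both Entpd1 windows (33.8%), and GGGCGG (SP factors) in Kank1 and Mdfic (32.7%). None of the 8 windows held CCGGAA (ETS, 12.03% of all windows), TCACATGA (the M-box of MITF, 0.846%), CACGTG (the E-box, 6.02%) or TATAAA (the TATA box, 12.4%). CpG counts per window differed widely among the 7 genes with a window, from 3 in Chrna1 to 24 in Kank1, around a median of 6 over all windows. A match is a description of letters and not a binding site.

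The paralogues and partners of the 10 genes were read from 9 lists of 111 genes, of which 109 were found in the table and 41 passed the filter of RPKM 1. Of these 41, 22 were at least 2-fold lower in the ICM (53.7%, against 44.0% of all genes), another 3 were at least 2-fold higher and 16 were within 2-fold. Their median log2 difference was -1.09, compared with -0.84 for all genes. Centred, 9 were lower and 4 higher, against 20.5% and 16.9% of all genes. The centred shares of the partners were 21.95% and 9.76%. Of the 41 partners, 4 had no ICM read, against 462 of all 8981 genes (5.14%).

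**Figure D5:**
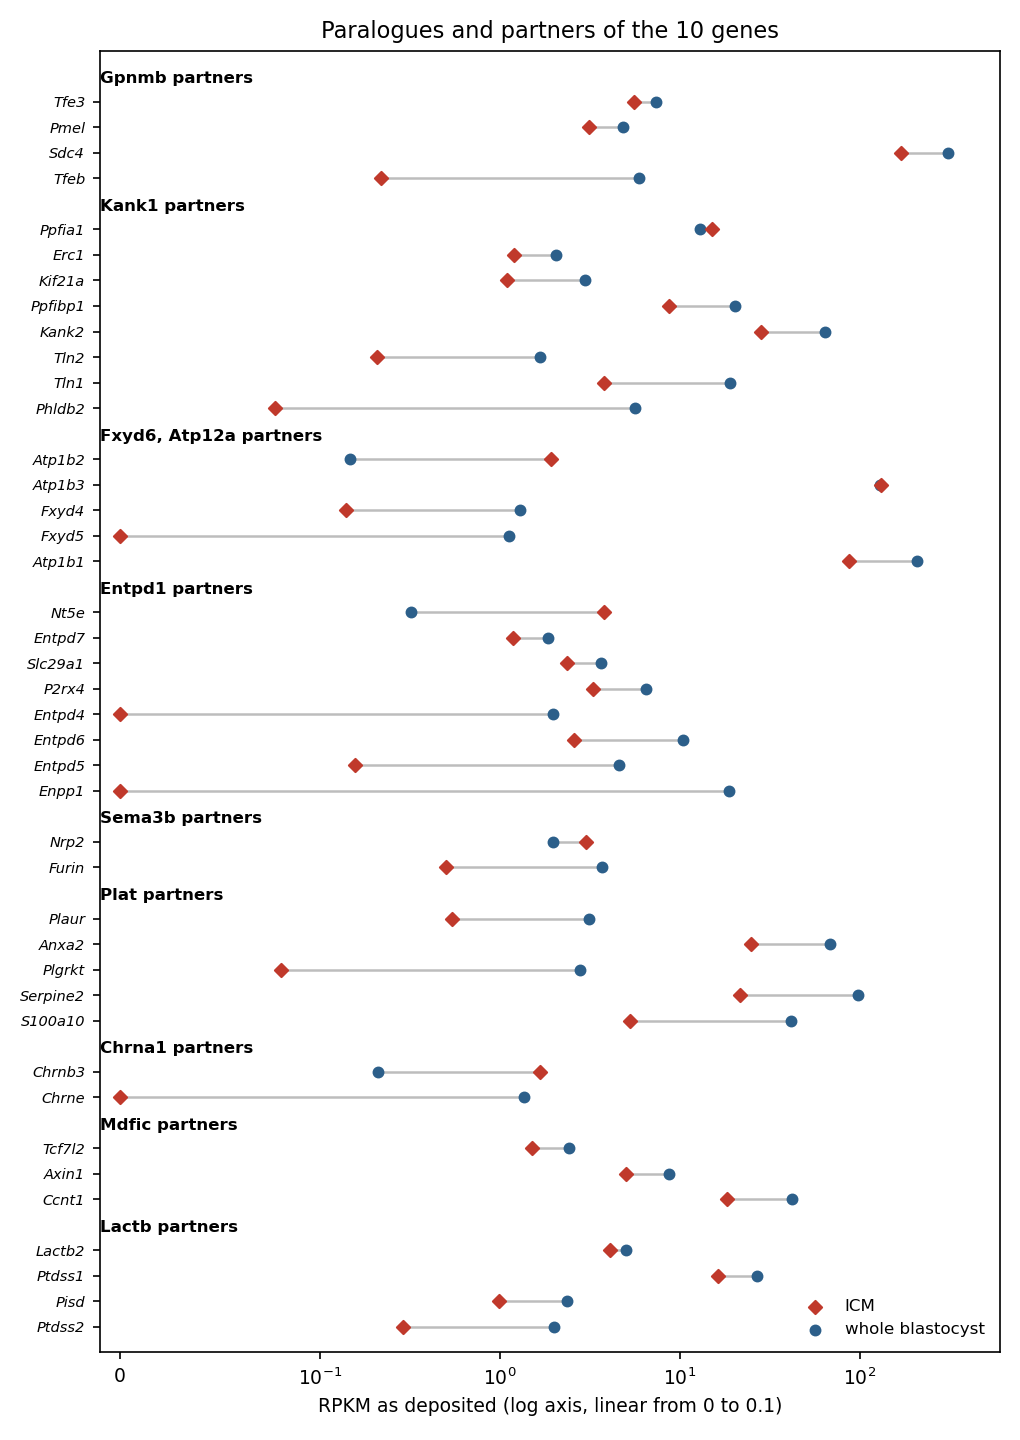
RPKM as deposited (x axis, log scale that is linear from 0 to 0.1) in the ICM (red diamonds) and the whole blastocyst (blue circles) for the 41 paralogues and partners that passed the filter, grouped by the gene they go with. Only Fxyd5, Entpd4, Enpp1 and Chrne lie at 0 in the ICM, and Atp1b2, Nt5e and Chrnb3 lie at least 2-fold higher there.

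Among pumps and their regulators, Atp12a encodes the catalytic subunit of the non-gastric proton and potassium pump, and Fxyd6 a small single-pass regulator of the sodium pump. The catalytic subunit of the stomach pump, Atp4a, had 12 ICM reads and 0 whole-blastocyst reads, and its beta subunit Atp4b none in either. The beta subunit genes of the sodium pump, whose products such pumps need to reach the membrane, differed from one another. Atp1b1 had 87.3 RPKM in the ICM and 208 in the whole blastocyst (2.38-fold lower, 95% counting interval 2.30 to 2.46), whereas Atp1b3 had 132 and 130 (ratio 1.01, 0.977 to 1.05). Atp1b2 had 122 ICM and 11 whole-blastocyst reads and was 13.2-fold higher (7.10 to 27.1). Of the other FXYD genes, Fxyd3 (0 ICM and 8 whole-blastocyst reads), Fxyd4 (1 and 11) and Fxyd5 (0 and 15) were barely read, and Fxyd1, Fxyd2 and Fxyd7 had no read. Fxyd6 had most of the family's reads, but it was chosen for its whole-blastocyst reads and the other FXYD genes were not. Of the 5 partners that passed the filter, 3 were at least 2-fold lower and 1 was higher, against 44.0% and 8.96% of all genes. When centred none was lower, against 20.5%.

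Entpd1 encodes CD39, an enzyme of the cell surface that cuts extracellular ATP and ADP to AMP. Enpp1, another surface enzyme that hydrolyses ATP, had 0 ICM and 477 whole-blastocyst reads, at least 134-fold lower in the ICM. Nt5e, which encodes CD73 and turns AMP into adenosine, lay on the other side, with 279 ICM and 28 whole-blastocyst reads (11.8-fold higher, 8.01 to 18.1). Of the Entpd1 paralogues, Entpd5 had 21 ICM and 734 whole-blastocyst reads (29.4-fold lower, 19.1 to 47.9). Entpd4 had 0 and 109 reads (at least 30.6-fold lower), and Entpd6 102 and 491 (4.06-fold lower, 3.27 to 5.07). Entpd7 was within 2-fold on the log2 scale with 180 ICM and 333 whole-blastocyst reads. Entpd2 had 0 ICM reads and 1 whole-blastocyst read, and Entpd3 and Entpd8 had none in either. Receptors for extracellular ATP and adenosine were little read. P2rx4, an ATP-gated channel gene, had 3.32 RPKM in the ICM and 6.53 in the whole blastocyst. The ATP receptor genes P2rx7, P2ry1 and P2ry2 had no read, and the adenosine receptor gene Adora1 had 25 ICM reads and none in the whole blastocyst. Of the 8 Entpd1 partners that passed the filter, 4 were at least 2-fold lower and 1 was higher, against 44.0% and 8.96% of all genes. When centred 3 were lower, against 20.5%.

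Plat encodes tissue-type plasminogen activator, a protease that turns plasminogen into plasmin and that is a known product of the parietal endoderm in the mouse. Its relative urokinase, Plau, had 3 ICM reads and 1 whole-blastocyst read, and the substrate gene Plg had 1 and 0. Of the 5 partners that passed the filter, all 5 were at least 2-fold lower in the ICM, against 44.0% of all genes, and 3 were when centred, against 20.5%. Serpine2, a serpin that inhibits plasminogen activators, was abundant, with 21.6 RPKM in the ICM and 98.0 in the whole blastocyst (4.54-fold lower, 4.15 to 4.96). Anxa2 and S100a10, which form a surface complex that binds tissue plasminogen activator, had 24.9 and 5.31 RPKM in the ICM and 68.8 and 41.6 in the whole blastocyst. S100a10 was 7.83-fold lower (6.22 to 9.98) and Anxa2 2.76-fold lower (2.44 to 3.14). The urokinase receptor gene Plaur had 13 ICM and 90 whole-blastocyst reads, and the plasminogen receptor gene Plgrkt 1 and 41. The inhibitor gene Serpinb2 had no read in either library.

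Sema3b encodes a secreted semaphorin, a guidance cue that signals through neuropilins and plexins. It was the main class 3 semaphorin read, but it was chosen for its whole-blastocyst reads. Sema3e came next at 1 ICM and 181 whole-blastocyst reads. Sema3a, Sema3c and Sema3f had at most 5 reads in either library, and Sema3d and Sema3g had none. Of its receptors, Nrp2 had 384 ICM and 298 whole-blastocyst reads, or 3.01 and 1.97 RPKM (1.53-fold higher, 1.31 to 1.79). Nrp1 had no read, and none of the 5 plexin genes of the list had over 14 reads in either library. Furin, a protease that processes class 3 semaphorins, had 40 ICM and 349 whole-blastocyst reads (7.35-fold lower, 5.29 to 10.5).

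Chrna1 encodes the acetylcholine-binding alpha subunit of the muscle nicotinic receptor. The subunits it assembles with in muscle were nearly unread. Chrnb1 had 0 ICM and 22 whole-blastocyst reads, the fetal subunit gene Chrng 0 and 17, the adult subunit gene Chrne 0 and 15, and Chrnd none in either. Chrnb3, a neuronal subunit gene, had 195 ICM and 29 whole-blastocyst reads (7.98-fold higher, 5.39 to 12.2). Below the filter, Chrna4 had 0 ICM and 59 whole-blastocyst reads, Chrnb4 17 and 47, and Chrna3 9 and 0. Rapsn and Musk, which cluster the receptor at the muscle synapse, and the enzyme genes Ache and Chat had no read. Over 7 muscle markers the summed level was 1.03 RPKM in the ICM and 1.04 in the whole blastocyst, Myog, Myf5, Ckm, Tnnt3 and Myh3 were at 0 in both, and Myod1 had 32 ICM and 0 whole-blastocyst reads. Acta1, the skeletal actin gene and the only one of the 7 to pass the filter, had 2 ICM and 18 whole-blastocyst reads (7.58-fold lower, 1.82 to 67.4), the direction of Chrna1. On the log2 scale with a pseudocount of 1 RPKM it was within 2-fold.

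Kank1 encodes a scaffold at the rim of focal adhesions, which binds talin and recruits proteins that hold microtubule ends at the cell cortex. Its paralogue Kank2 was the more abundant, with 28.4 RPKM in the ICM and 64.1 in the whole blastocyst (2.25-fold lower, 2.15 to 2.36). Kank4 had 14 ICM and 63 whole-blastocyst reads and Kank3 4 and 0. The talin gene Tln1 had 3.78 RPKM in the ICM and 19.1 in the whole blastocyst (5.07-fold lower, 4.002 to 6.48). Phldb2, a cortical linker of microtubules, had 5 ICM and 430 whole-blastocyst reads (72.5-fold lower, 30.8 to 224). Other partners were read in both libraries. The liprin gene Ppfia1 had 15.1 RPKM in the ICM and 13.0 in the whole blastocyst, and the kinesin gene Kif21a 1.10 and 2.98. Of 8 partners that passed the filter, 5 were at least 2-fold lower, against 44.0% of all genes, and 2 were when centred, near the 20.5% of all genes.

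Gpnmb encodes a transmembrane glycoprotein of endosomes and the cell surface, known from melanocytes, macrophages and osteoclasts. Its paralogue Pmel, listed under the older symbol Si, had 42 ICM and 77 whole-blastocyst reads (3.14 and 4.85 RPKM). The MiT transcription factors, known regulators of Gpnmb in those cells, were uneven. Tfeb, listed as Tcfeb, had 9 ICM and 290 whole-blastocyst reads (27.1-fold lower, 14.1 to 60.0). Tfe3, listed as Tcfe3, had 362 and 567. Mitf had 105 ICM and 14 whole-blastocyst reads, at 0.773 and 0.0868 RPKM, below the filter. Sdc4, a syndecan that binds GPNMB, was abundant in both at 169 RPKM in the ICM and 308 in the whole blastocyst. Melanocyte and macrophage markers were at most at 19 ICM reads and 16 whole-blastocyst reads, with Dct and Tyrp1 at 0 in both, and summed to 1.16 RPKM in the ICM and 2.74 in the whole blastocyst.

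Mdfic encodes a protein with a cysteine-rich I-mfa domain that binds cyclin T1 and Wnt pathway proteins. Its only close relative in the list, Mdfi, had 1 ICM read and 0 whole-blastocyst reads. Ccnt1, the gene of cyclin T1, had 18.3 RPKM in the ICM and 42.3 in the whole blastocyst (2.31-fold lower, 2.14 to 2.48). Axin1 had 5.03 and 8.72 RPKM, within 2-fold on the log2 scale. Lactb encodes a filament-forming protein of the mitochondrial intermembrane space that is related to bacterial beta-lactamases. Lactb2, a mitochondrial nuclease gene with a similar name, had 4.09 RPKM in the ICM and 5.06 in the whole blastocyst (ratio 0.809, 0.655 to 0.995). Pisd and Ptdss1, enzymes of phospholipid synthesis, had 0.995 and 16.3 RPKM in the ICM and 2.38 and 27.0 in the whole blastocyst. Of the 4 Lactb partners, 1 was at least 2-fold lower, Ptdss2 with 9 ICM and 74 whole-blastocyst reads, and none was when centred, against 44.0% and 20.5% of all genes.

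The 10 genes lie on chromosomes 2 (Chrna1), 6 (Gpnmb, Mdfic), 8 (Plat), 9 (Fxyd6, Sema3b, Lactb), 14 (Atp12a) and 19 (Kank1, Entpd1). The nearest gene listed under its current symbol on either side of each was read from the RefSeq annotation, which gave 20 neighbours. Genes listed under an older symbol, such as Tfec (listed as Tcfec), are not among them and may lie nearer, so the counts below could change. Of the 20 neighbours, 11 had reads in both libraries, 3 in the whole blastocyst alone, 2 in the ICM alone and 4 in neither. Of the 11 that passed the filter, 7 were at least 2-fold lower in the ICM (63.6%, against 44.0% of all genes) and none was 2-fold higher. Their median log2 difference was -1.15, compared with -0.84 for all genes. These values are not centred, so they include the general shift of the ICM library. The neighbours with reads in the whole blastocyst alone had few of them, 74 for Dock8 beside Kank1, 66 for Tctn3 beside Entpd1 and 8 for Rnf17 beside Atp12a. The neighbours with the lowest log2 differences were Wipf1, an actin regulator gene beside Chrna1 (24 ICM and 2344 whole-blastocyst reads), and Tpm1, a tropomyosin gene beside Lactb (897 and 9160). Rps27l, on the other side of Lactb, had 195 ICM and 522 whole-blastocyst reads, and Fxyd2, next to Fxyd6, had none. Whether counting used strand is not stated. Sema3b overlaps the coding gene Lsmem2 in that annotation, and Kank1, Entpd1 and Chrna1 overlap noncoding genes or pseudogenes, so without strand the reads of these 4 genes could not be told from those of the overlapping genes.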

How the data were processed

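The ICM and the whole blastocyst gave 1 library each. Per the labels' protocols, a PicoPure kit was used for extraction, NuGEN Ovation reagents for amplification and a SOLiD kit for the fragment libraries. The authors deposited a read count and an RPKM value per gene and library, per the file headers. The submitters' processing notes name the build mm9. Not stated are the aligner, the annotation, the use of strand, the handling of multi-mapping reads, and the length and total behind RPKM. The ratio of the totals behind RPKM was 0.842 (ICM over whole blastocyst), against 0.445 for the listed reads.

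Differences are log2((ICM RPKM + 1)/(whole-blastocyst RPKM + 1)) for the 8981 genes that reached RPKM 1 in either library, where a pseudocount of 1 understates the change of low genes. At least 2-fold means past 1 or -1 on this scale. Ratios of RPKM carry exact conditional (Clopper-Pearson) 95% intervals from the read counts, and a gene with 0 ICM reads is bounded at a floor of 3 reads in that library. With 1 library per group no p-value was computed. The genes and lists were chosen with earlier results of these data known. Genes named are the 10 genes, their partners, the genes nearest the limits, and annotated neighbours. In the marker and partner lists, older symbols were matched through RefSeq unless another gene now bears them. Tcf7l1, Piezo1 and Hba-a1 were not analysed here, and 2 further genes of the partner lists are not reported here and stay out of the counts. Promoters are from RefSeq (GRCm38.p6), less the 50 bases after each start, and transcript lengths from GENCODE M21. These references are not of the files' build, so the only coordinates given are those of the printed promoter windows. The computations (Python 3.11.15, pandas 2.3.3, SciPy 1.17.1) were tested on simulated Poisson counts. Such counts are independent, as the intervals assume, so the effect of amplification was not tested. Alternatives covered the thresholds, the scaling, the pseudocount, the filter and the gene length.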

Additional observations from a re-analysis of the deposited data

How the results depend on the processing

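The count of 12 genes over 600 whole-blastocyst reads without an ICM read depended on both limits. It was 48 at 300 reads, 24 at 450 and 4 at 900. Allowing at most 1, 2 or 3 ICM reads gave 15, 21 and 25, and a limit on whole-blastocyst RPKM at that of Chrna1 gave 77. The median bound of the 10 genes, 230-fold lower in the ICM at a floor of 3 reads, was 187-fold by the exact 95% limit, 122-fold scaled to listed reads, 146-fold centred and 118-fold by TPM. The count of 22 partners at least 2-fold lower was 9 centred, 11 with a pseudocount of 5 and 12 with a filter of RPKM 5. It was 17 by TPM, 24 with a pseudocount of 0.1 and 22 without the filter. Reads per kilobase of coding transcript, an alternative chosen after seeing the data, changed the order of the 10 genes. No paired analysis was possible because there was 1 library per group, and none could be left out. The floor of 3 ICM reads was a chosen setting that covers counting error only, and the limit of detection in the ICM library was not measured.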
